A study of Mus musculus with 6 samples.

Results

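Most CpG-dense DNA of the neonatal mouse neocortex carried almost no CpG methylation, and the windows described here were its methylated minority. The members were 369 windows of 500 bp on the autosomes, out of 15285 CpG-dense windows in all, or 2.41%. Each held at least 3 CpGs of density over 15 and had a methylation level above 75% in the mean of the WT samples. The density of a CpG is the number of CpGs within 250 bp on either side, itself included. It counts only CpGs listed in the data of any of the 6 samples, not all CpGs of the genome sequence. The level of a window is the mean over its dense CpGs of the percent of reads that kept a cytosine after bisulfite conversion. The members were chosen by the WT levels of these same samples, so a high WT level is the rule and not a result, and no test is given for it.

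The data are reduced representation bisulfite sequencing (RRBS), in which the enzyme MspI cuts at CCGG and bisulfite turns unmethylated cytosines into uracil. Neocortex at postnatal day 5 was profiled in 3 samples labelled Chd8+/-, heterozygous for the chromatin remodeller gene Chd8, and in 3 samples labelled WT. The labels name no treatment, strain, sex, litter or Chd8 allele, and they do not say that samples came from separate animals, so every p-value here measures only the spread between the 6 libraries, which may be technical. No expression was measured, so tissue markers could not be read, and the genotype label was not checked. Coverage summed over listed CpGs was 32285980 to 39820333 reads in the Chd8+/- libraries and 45498222 to 54818138 in the WT libraries. Summed over its dense CpGs, the median member window had a coverage of 182 to 216 per Chd8+/- library and 234 to 285 per WT library. In such sums a read that spans several CpGs counts once for each. Replicate 3 of each genotype had a larger share of its coverage on chromosome X, 2.56% in Chd8+/- and 2.58% in WT, against 1.18% to 1.21% in the other libraries, so values are also given within these sets.

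CpG islands are stretches of DNA that keep a high CpG content, most of them at gene starts, where they are usually free of methylation whether the gene is active or not. Methylated CpG islands in somatic tissue are known mainly from promoters of germline genes, which are methylated in the early embryo and stay silent, from imprinted loci, where 1 parental copy is methylated, and from islands inside transcribed genes. DNA methyltransferases set the mark and TET enzymes oxidise it.

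Promoters are given below for 7 germline genes with a member at the start and several CpGs read in every sample. Mael, with 4 such CpGs at 76.9% in Chd8+/- and 72.2% in WT, also fits and is not shown. The promoters below include the bidirectional promoter of Tmem267, the densest member. They are RefSeq sequences (table of build GRCm38.p6) of 250 bases before and 50 after a gene start, placed on mm39 by matching the pattern of CpGs listed in the data. Capitals mark CpGs with at least 10 reads in all 6 samples, and lower-case CpGs lacked that depth or were not listed.
Asz1 (chr6:18109011-18109310, minus strand): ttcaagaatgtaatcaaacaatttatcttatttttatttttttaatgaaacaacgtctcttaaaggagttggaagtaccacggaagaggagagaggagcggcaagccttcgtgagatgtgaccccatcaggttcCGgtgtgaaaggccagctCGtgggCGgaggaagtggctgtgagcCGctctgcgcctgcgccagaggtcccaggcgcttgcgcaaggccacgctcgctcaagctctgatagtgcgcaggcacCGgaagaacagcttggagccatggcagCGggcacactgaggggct
Dmrtb1 (chr4:107540737-107541036, minus strand): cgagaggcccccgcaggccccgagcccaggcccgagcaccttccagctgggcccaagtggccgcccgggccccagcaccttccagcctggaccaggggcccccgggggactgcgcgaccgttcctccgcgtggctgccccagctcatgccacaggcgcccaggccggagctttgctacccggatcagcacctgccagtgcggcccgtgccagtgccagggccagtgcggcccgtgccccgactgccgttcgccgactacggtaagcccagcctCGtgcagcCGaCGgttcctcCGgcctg
Hormad2 (chr11:4391033-4391332, minus strand): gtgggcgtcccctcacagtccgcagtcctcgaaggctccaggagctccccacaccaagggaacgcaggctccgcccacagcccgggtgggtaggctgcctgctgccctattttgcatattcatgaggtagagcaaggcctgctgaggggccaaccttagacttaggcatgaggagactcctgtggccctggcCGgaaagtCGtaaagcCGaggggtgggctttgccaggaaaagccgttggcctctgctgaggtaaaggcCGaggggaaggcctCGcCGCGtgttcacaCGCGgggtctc
Sohlh2 (chr3:55089215-55089514, plus strand): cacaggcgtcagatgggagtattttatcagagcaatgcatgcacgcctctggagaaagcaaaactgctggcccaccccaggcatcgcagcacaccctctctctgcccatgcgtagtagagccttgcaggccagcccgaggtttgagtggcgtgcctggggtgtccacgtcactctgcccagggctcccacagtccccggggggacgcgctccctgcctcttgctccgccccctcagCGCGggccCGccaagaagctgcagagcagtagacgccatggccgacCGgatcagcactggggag
Tex101 (chr7:24371426-24371725, minus strand): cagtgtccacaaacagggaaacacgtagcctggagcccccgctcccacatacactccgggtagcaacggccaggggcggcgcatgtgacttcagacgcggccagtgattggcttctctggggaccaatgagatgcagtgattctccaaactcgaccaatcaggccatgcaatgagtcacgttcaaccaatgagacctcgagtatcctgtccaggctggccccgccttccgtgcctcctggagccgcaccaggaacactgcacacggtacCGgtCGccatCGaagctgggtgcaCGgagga
Tuba3b (chr6:145561439-145561738, plus strand): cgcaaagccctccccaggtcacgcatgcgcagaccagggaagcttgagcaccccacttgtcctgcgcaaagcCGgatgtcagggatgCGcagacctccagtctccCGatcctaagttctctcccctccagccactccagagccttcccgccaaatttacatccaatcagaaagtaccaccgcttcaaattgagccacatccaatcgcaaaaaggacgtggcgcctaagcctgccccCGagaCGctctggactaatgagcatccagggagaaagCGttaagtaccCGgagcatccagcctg
D1Pas1 (chr1:186699363-186699662, plus strand): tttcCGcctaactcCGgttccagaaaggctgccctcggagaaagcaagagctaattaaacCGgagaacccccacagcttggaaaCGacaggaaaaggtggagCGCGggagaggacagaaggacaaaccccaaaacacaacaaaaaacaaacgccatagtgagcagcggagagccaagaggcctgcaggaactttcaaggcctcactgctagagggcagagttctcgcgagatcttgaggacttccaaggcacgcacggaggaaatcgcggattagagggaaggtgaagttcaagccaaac
Tmem267 (chr13:119624759-119625058, plus strand): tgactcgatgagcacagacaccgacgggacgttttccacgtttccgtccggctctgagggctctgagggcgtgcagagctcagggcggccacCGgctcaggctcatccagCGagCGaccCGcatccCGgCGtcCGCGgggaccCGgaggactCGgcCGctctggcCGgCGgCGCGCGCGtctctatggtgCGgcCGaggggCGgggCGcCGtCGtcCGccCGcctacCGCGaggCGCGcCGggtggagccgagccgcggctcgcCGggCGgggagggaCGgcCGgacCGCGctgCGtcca
The capital CpGs averaged 93.9% in Chd8+/- and 95.6% in WT at Asz1, 89.1% and 89.6% at Sohlh2, 96.5% and 96.6% at Tuba3b, and 94.4% and 95.5% at D1Pas1. They averaged 99.0% in Chd8+/- and 91.6% in WT at Dmrtb1, 95.3% and 95.03% at Tex101, and 87.9% and 84.4% at Tmem267. At Hormad2 they averaged 63.6% in Chd8+/- and 56.3% in WT. The member windows of Hormad2 and D1Pas1 lie downstream of the sequence shown, and the capitals of Sohlh2 lie before its member window. The averages of these genes are thus of CpGs outside the member. The capitals of D1Pas1 had densities of 9 to 11 and those of Sohlh2 13 or 16, and Tuba3b had some of 12 or 13, so not all were dense CpGs. The capitals cover part of each promoter, because RRBS reads CpGs near MspI sites.

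The CpG-dense windows fell into a large unmethylated class and a small methylated one, with few between. A WT mean under 25% was found in 14716 windows and one of 25% to 75% in 200. The 369 members formed 319 loci, of which 272 were single windows, 44 were pairs of adjoining windows and 3 were runs of 3. They held 2359 dense CpGs, a median of 5 per window, and 2209 of these CpGs (93.6%) were themselves above 75% in WT while 3 were under 25%. Members had a lower density of listed CpGs than unmethylated windows, with a median of 18.3 per 500 bp against 25.4, and 263 of them had 20 or fewer. This density depends on which CpGs were read. In promoters touched by a member, 5 of 25 CpGs of the sequence were listed at Tdrd1 and 16 of 17 at Rpl39l. Reads per CpG had a median of 40.8 in members and 37.4 in unmethylated windows.

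**Figure D1:**
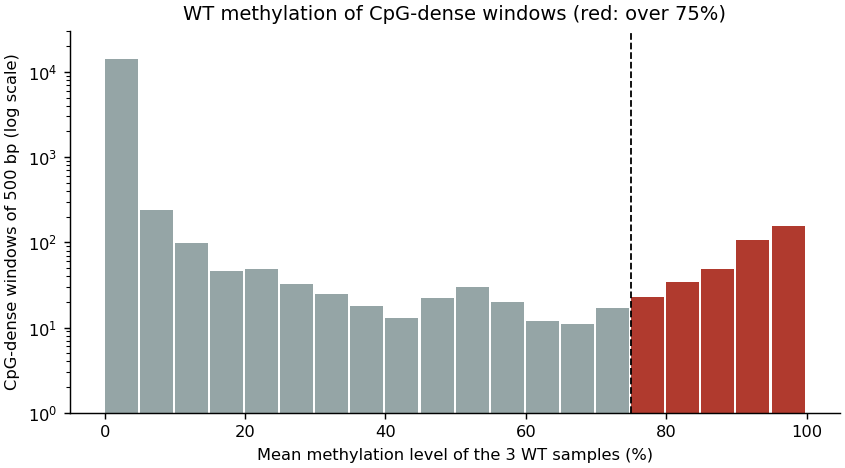
Number of CpG-dense windows (vertical axis, log scale) by the mean methylation level of the 3 WT samples in percent (horizontal axis, bins of 5 points); red bars are the 369 members and the dashed line is the 75% threshold. The lowest bin holds 14286 windows, the bins between 25% and 75% hold 11 to 32 each, and the highest bin holds 157.

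The threshold cut through a sparse range. The 3 members nearest to it were in Begain, at 75.4 ± 13.8% in Chd8+/- and 75.7 ± 2.90% in WT (SD, n = 3 each), in Jarid2, at 78.1 ± 3.18% and 75.9 ± 3.67%, and at chr12:19754001-19754500, at 85.5 ± 1.48% and 76.1 ± 8.61%. Just outside were chr11:97666001-97666500 at 91.6 ± 6.57% in Chd8+/- and 74.9 ± 14.4% in WT, chr17:91395501-91396000 at 70.2 ± 16.5% and 74.2 ± 12.6%, and a window in Upf1 at 73.97 ± 6.03% and 74.1 ± 1.42%. At the other end, windows in Tubb4a, Prdm16 and Spsb4 read 100% in each WT library, with Chd8+/- means of 97.9%, 96.1% and 97.0%.

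Members were mostly away from gene starts. Starts could be placed on mm39 for 9423 genes, and 363 members lay on chromosomes with placed starts. Of these, 23 (6.34%) were within 500 bp of a start, 166 (45.7%) were downstream of a start by less than the gene's RefSeq length, and 174 (47.9%) were elsewhere. Of the unmethylated windows, 55.6% were within 500 bp of a start and 9.99% within a gene's length. The intermediate windows stood nearer to the members, with 11.9% at a start and 38.7% within a gene. In all 3 classes, a window at a start that was not placed counts as within a gene if a placed gene's length reaches it. Otherwise it counts as elsewhere, unless another placed start is near. Within-gene windows can thus include some at starts that were not placed. These shares are a description with no test, since the levels that define the classes are those of the same windows.

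Inside genes, the members lay towards the far end. The 166 within-gene windows, in 137 genes, sat at a median of 76.3% of the gene's length, and 74 of them (44.6%) were in the last 20% while 6 (3.61%) were in the first 20%. Unmethylated windows showed the opposite order, with 12.5% in the last 20% and 52.7% in the first 20%. The intermediate windows within genes leaned the same way as the members, at a median of 66.3% of the gene's length. Of them, 30.7% were in the last 20% and 10.7% in the first 20%. The 74 member windows of the last 20% lay in 61 genes.

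**Figure D2:**
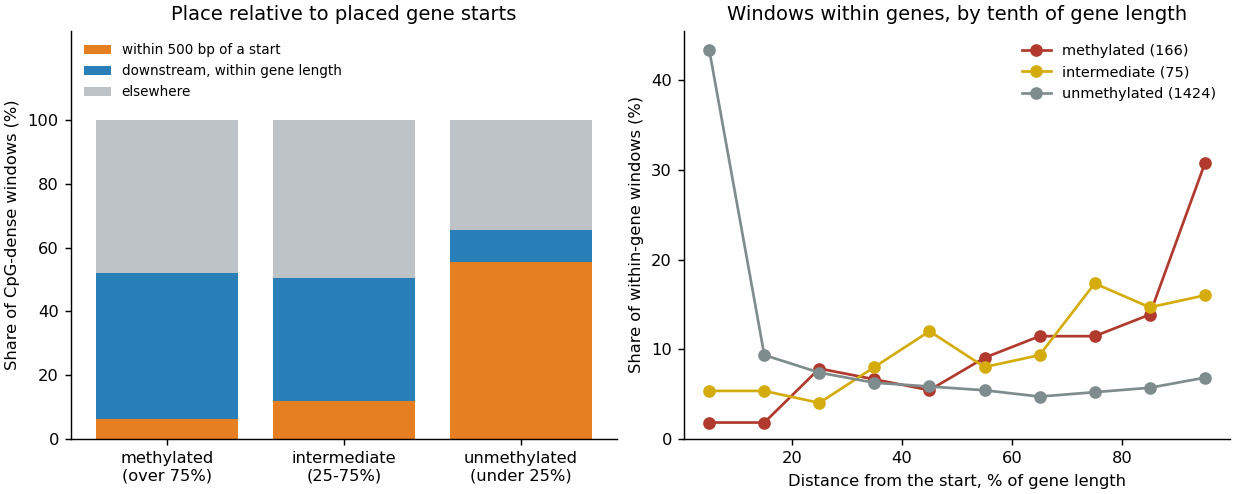
Left: share in percent of methylated, intermediate and unmethylated CpG-dense windows within 500 bp of a placed gene start, downstream within the gene's length, and elsewhere. Right: share in percent of within-gene windows by distance from the start as percent of gene length, in bins of 10%, for the same classes; the methylated line is highest at the far end of genes and the unmethylated line at the start.

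The windows in the last 20% of a gene included some in genes of transcription factors and chromatin proteins, given here as examples and not as a tested theme. In Bcl11b, a zinc finger factor of cortical projection neurons, adjoining windows of density 27.0 and 24.7 read 97.1 ± 2.78% and 100% in Chd8+/- and 97.7 ± 1.57% and 99.2 ± 1.37% in WT. In Cux1, a homeodomain factor of upper cortical layers, the window read 97.5 ± 1.74% in Chd8+/- and 96.7 ± 3.25% in WT. In Arid1b, a subunit of the BAF remodelling complex, both adjoining windows were methylated, at 97.9 ± 1.85% and 97.4 ± 0.396% in Chd8+/- and 96.0 ± 2.41% and 96.3 ± 2.61% in WT. All of these genotype differences were smaller than the larger SD of the pair compared. Hivep1, Rere, Cux2, Prdm16 and Spen, all nuclear regulators, also carried such windows.

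The densest within-gene members lay in Shroom3, Begain and Scaf1. Begain, which codes for a protein of the postsynaptic density, carried a window of density 46.0 at 91.0%, 64.4% and 71.0% in the Chd8+/- samples and 78.4%, 75.9% and 72.7% in the WT samples. The Chd8+/- values there spread around all the WT values. Shroom3, an actin-binding protein that shapes the apical side of neuroepithelial cells, held a window of density 46.9 at 92.4 ± 3.74% in Chd8+/- and 93.6 ± 2.08% in WT. Scaf1, a protein of pre-mRNA splicing, held 1 of density 41.4 at 96.9 ± 1.87% and 95.6 ± 0.872%. In Snrnp70, a protein of the U1 splicing particle, the windows of density 24.9 and 25 were next to each other at the gene's end. Of the 15 placed genes on a list of postsynaptic and autism-linked genes, Arid1b and Nlgn2 held a member inside, and of 36 placed developmental transcription factors from a second list none did.

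Tet1, Jarid2 and Gnas held members at other places in their length. Tet1, which oxidises methylcytosine, carried a member near the front of the gene at 97.7 ± 0.950% in Chd8+/- and 96.9 ± 1.83% in WT. Jarid2, a partner of Polycomb complex 2, held a window of 14 CpGs with 495 reads per CpG at 79.3%, 80.5% and 74.5% in the Chd8+/- samples, against 77.5%, 71.7% and 78.4% in the WT samples. The groups overlapped, and both sat near the threshold at great depth. Gnas, the imprinted gene of the stimulatory G protein, was the single gene of 12 placed imprinted genes with a member within its length, at 46.4%, 69.1% and 84.3% in the Chd8+/- samples and 69.3%, 94.3% and 75.7% in the WT samples. These overlapped widely, and the window adjoined one of intermediate level.

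The surroundings of the members were methylated as well. Among 270 members with sparser CpGs read within 2000 bp, the mean WT level of those CpGs was above 75% for 223 and under 25% for 9. Windows in Spen, Nacc2, Pheta1, B4galnt4 and Lmtk3 were among the 9, so their dense core was methylated beside unmethylated sparser CpGs. In B4galnt4 the core read 85.7 ± 7.13% in Chd8+/- and 85.8 ± 8.82% in WT beside 5 flanking CpGs at 0% in WT. A CpG-dense unmethylated window adjoined 4 members and an intermediate one 7.

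Of 24 genes with a member at their start, 12 were on a list of 123 germline genes. The 23 windows at starts touched 25 promoters of these 24 genes. Of that list 34 genes were placed, 20 had a CpG-dense window within 500 bp of the start, and 12 of the 20 had a member. Counting promoters with at least 3 covered CpGs instead, 9 of 19 germline promoters were above 75% in WT, 7 were under 25% and 3 lay between, beside 96 of 5085 (1.89%) for all placed genes. None of 17 developmental transcription factors, 7 imprinted genes and 7 postsynaptic or autism-linked genes was above 75%. The list was drawn up with results of these data known, and the shares carry no test.

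The piRNA and germ granule genes were methylated at high and less high levels. Asz1, a germ granule protein of the piRNA pathway, read 96.6%, 89.7% and 95.4% in the Chd8+/- samples, against 92.8%, 96.6% and 97.6% in the WT samples, in the 6 CpGs capitalised above. Mael, which acts in the same pathway, read 100%, 94.7% and 100% in the Chd8+/- samples, against 99.4%, 100% and 100% in the WT samples, in 4 CpGs downstream of the start. Tdrd1, a Tudor protein that binds piRNA-loaded proteins, read 81.2%, 74.96% and 94.9% in the Chd8+/- samples, against 77.0%, 71.3% and 81.4% in the WT samples. In each of the 3 windows the groups overlapped, and the Tdrd1 libraries spread the most.

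Regulators of germ cells and of meiosis followed. Dazl, an RNA-binding protein that licenses germ cell fate, read 79.4%, 72.1% and 87.4% in the Chd8+/- samples, against 84.3%, 80.8% and 87.2% in the WT samples. Sohlh2, a transcription factor of early germ cells, read 94.5%, 98.4% and 99.5% in the Chd8+/- samples, against 95.3%, 97.8% and 98.0% in the WT samples. The values of these 2 genes were mixed between genotypes. Hormad2, a protein of the meiotic chromosome axis, read 88.6%, 90% and 95.2% in the Chd8+/- samples, against 86.8%, 82.3% and 89.7% in the WT samples. Tex14, which builds the bridges between germ cells, read 98.3% to 100% in Chd8+/- and 96.2% to 100% in WT, in a window shared with the start of the repair gene Rad51c.

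Dmrtb1, a transcription factor that guards the entry into meiosis, was the germline window with the largest genotype difference. It read 100%, 100% and 97.1% in the Chd8+/- samples, against 92.7%, 92.2% and 89.9% in the WT samples. Coverage summed over its 4 CpGs was 65 to 104 in the Chd8+/- libraries and 99 to 126 in the WT libraries. The lowest coverage of a single CpG in a library was 14 reads. The groups did not overlap, and the difference was 7.42 points, but in edgeR's quasi-likelihood test over all windows its adjusted p was 0.998 and its unadjusted p 0.0353. Slc25a31, the testis form of the mitochondrial ADP/ATP carrier, did not overlap either and went the other way. It read 93.0%, 91.6% and 90% in the Chd8+/- samples, against 94.9%, 96.2% and 95.6% in the WT samples (edgeR adjusted p = 0.998).

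The remaining list genes were Tuba3b, Tex101 and D1Pas1. Tuba3b, an alpha-tubulin of testis, read 96.8 ± 1.65% in Chd8+/- and 96.5 ± 1.67% in WT, and Tex101, a surface protein of sperm and their precursors, read 95.3 ± 0.299% and 95.03 ± 3.37%. D1Pas1, a testis DEAD-box helicase, read 95.4 ± 1.69% in Chd8+/- and 93.1 ± 1.73% in WT (SD, n = 3 each for all 3 genes). Over the 12 germline windows the sample means were 93.1%, 91.7% and 95.6% in Chd8+/- and 92.3%, 91.7% and 93.3% in WT, with 8 windows higher and 4 lower in Chd8+/-. The groups overlapped, and their means of 93.4 ± 1.99% in Chd8+/- and 92.4 ± 0.791% in WT differed by less than the SD within Chd8+/-.

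**Figure D3:**
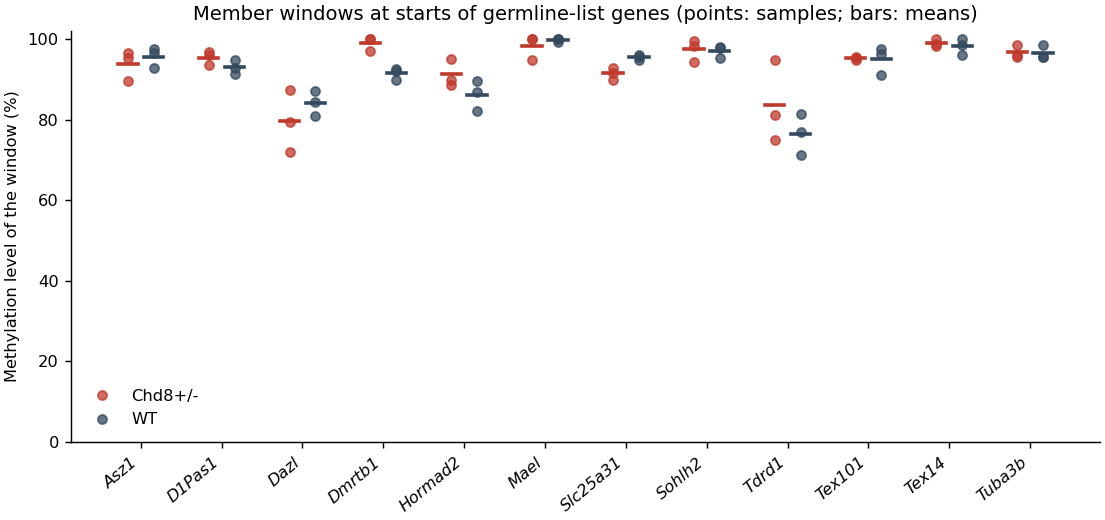
Methylation level in percent (vertical axis) of the member window at the start of each of 12 germline-list genes; points are samples and bars the means of 3, with Chd8+/- in red and WT in dark blue. All WT means lie between 76.5% and 99.8%, and the Chd8+/- and WT points separate at Dmrtb1 and Slc25a31.

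The levels were not even along these starts. Within 1000 bp of the Dazl start, 18 of 26 covered CpGs were above 75% in WT and 6, all downstream of the start, were under 25%. At Hormad2 the 3 covered CpGs upstream of the start averaged 56.0% in Chd8+/- and 21.7% in WT, while the 14 downstream averaged 80.6% and 78.3%. These 3 upstream CpGs lie close together, 41 to 57 bp before the start and outside the member window. Their lowest counts in a sample were 10 or 11 reads. At the farthest of them the samples ran from 21.4% to 70% in Chd8+/- and from 0% to 16.2% in WT. No test is given for them. At Mael 4 CpGs upstream averaged 76.9% in Chd8+/- and 72.2% in WT, and the 4 downstream 98.2% and 99.8%. At Tuba3b, Slc25a31, Sohlh2, D1Pas1, Asz1, Dmrtb1, Tex14 and Tex101 every covered CpG of the stretch was above 75% in WT.

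**Figure D4:**
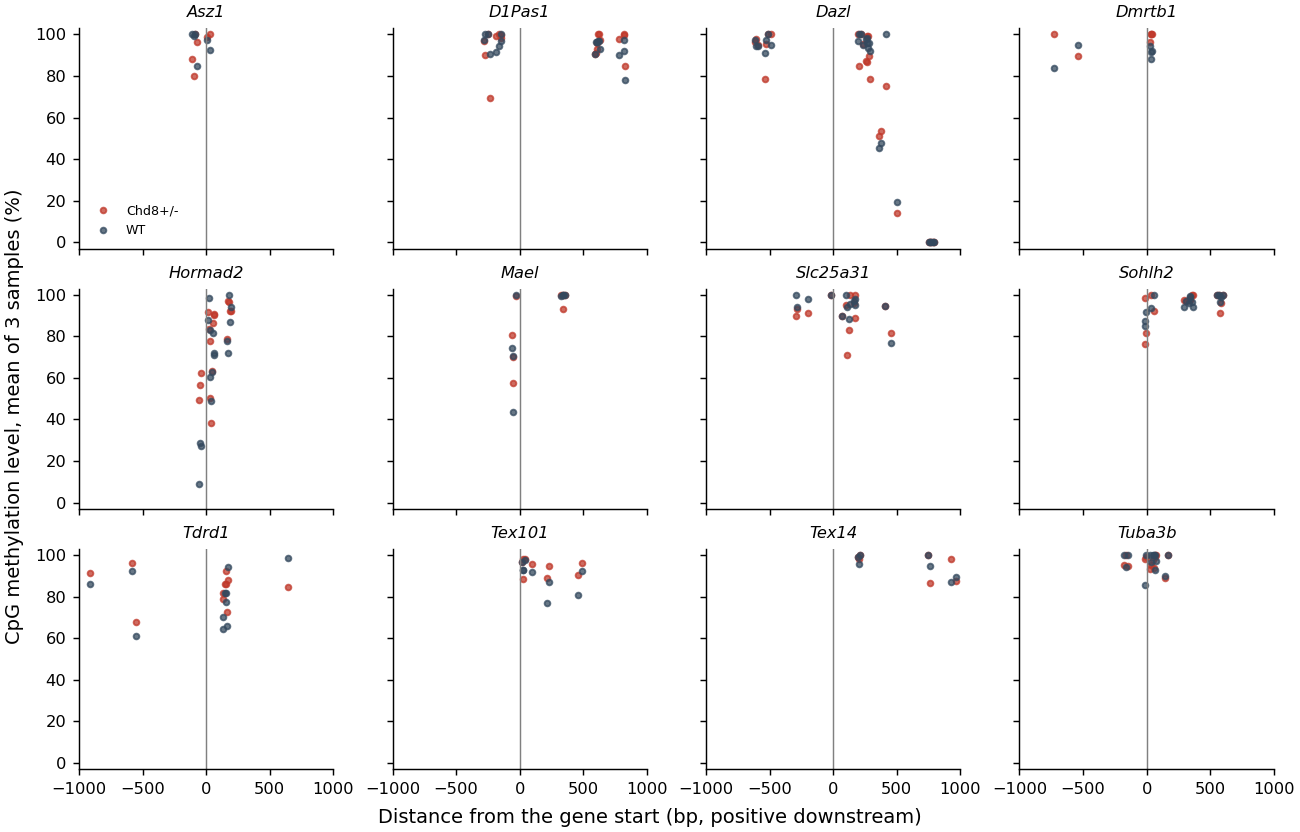
Methylation level in percent of each CpG with at least 10 reads in all 6 samples (vertical axis, mean of 3 samples; Chd8+/- in red, WT in dark blue) by its distance in bp from the start of 12 germline-list genes (horizontal axis, positive downstream). Most points lie above 75%, Dazl runs down to 0% beyond 500 bp downstream, and Hormad2 is lowest just upstream of its start.

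Not every germline promoter was methylated. Smc1b, a meiotic cohesin subunit, read 0% in Chd8+/- and 0.282 ± 0.489% in WT, and Mei4, which is needed for meiotic DNA breaks, 0% and 0.388 ± 0.672%. Tdrd5, a Tudor protein of germ cells, read 0% in Chd8+/- and 0.680 ± 1.18% in WT. Tesmin, Ybx2, Terb1 and Hspb9 were also under 25%, and Ddx4, a germ cell helicase, was at 85.0 ± 7.24% in Chd8+/- and 72.5 ± 10.2% in WT, with a promoter level just under the WT threshold.

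The other start windows belong to genes off the list, named because they touch a start, after their values were seen. Zglp1, a zinc finger protein of oocyte fate, read 94.6%, 100% and 70.9% in the Chd8+/- samples, against 86.5%, 90.05% and 91.7% in the WT samples. Rpl39l, a testis form of a ribosomal protein, read 94.5%, 73.9% and 94.0% in the Chd8+/- samples, against 93.5%, 91.0% and 92.7% in the WT samples. In both, a single low Chd8+/- library set the group mean. Btbd18, which controls piRNA precursors, shares its window with Ctnnd1, the gene of p120 catenin, and read 94.3 ± 2.01% in Chd8+/- and 90.7 ± 7.46% in WT. Ccin, a protein of the sperm head, read 92.4 ± 7.40% in Chd8+/- and 91.5 ± 2.79% in WT. The groups overlapped at Btbd18 and at Ccin. Gm15343 read 97.5%, 90.7% and 94.9% in the Chd8+/- samples, against 89.7%, 86.1% and 84.3% in the WT samples, without overlap (edgeR adjusted p = 0.998). Gm34222 read 95.3 ± 2.60% in Chd8+/- and 86.7 ± 8.45% in WT, and CN725425 96.9 ± 1.38% and 94.3 ± 5.48%. Plekhg4 read 79.98 ± 10.3% in Chd8+/- and 80.2 ± 7.62% in WT, and these last 3 windows overlapped between genotypes.

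The locus of Tmem267 and 3110070M22Rik was the densest and 1 of the 3 longest, at chr13:119624501-119626000. Its first window held 30 CpGs of density 59.3 and read 87.7%, 90.2% and 82.7% in the Chd8+/- samples, against 79.8%, 86.5% and 81.4% in the WT samples. The middle window read 85.2%, 82.5% and 82.7% in the Chd8+/- samples, against 77.1%, 75.3% and 78.3% in the WT samples. The last window read 89.98%, 92.1% and 86.5% in the Chd8+/- samples, against 76.8%, 84.7% and 79.9% in the WT samples. The groups overlapped in the first window and did not in the other two, with differences of 6.59 and 9.08 points, and edgeR's adjusted p was 0.998 in both. The locus had 94.4, 109 and 267 reads per CpG, above the member median of 40.8. Its windows adjoin each other and are not independent.

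At all 23 start windows together, the Chd8+/- samples averaged 92.2%, 90.9% and 92.2% and the WT samples 88.7%, 89.8% and 90.3%, with 16 windows higher and 7 lower in Chd8+/-. The sample means did not overlap, and the difference was 2.14 points, with SDs of 0.731 in Chd8+/- and 0.793 in WT. It was 2.28 points within the libraries of low chromosome X share and 1.87 within the pair of high share, and 1.47 points without the 3 Tmem267 windows (92.5% in Chd8+/- and 91.1% in WT). Without these 3 adjoining windows the sample means overlapped, with Chd8+/- replicate 2 below WT replicate 3. The separation thus rested on 1 locus. This grouping was looked at after the values were seen, the WT values had chosen the windows, and no p is given. The 166 within-gene windows averaged 92.3 ± 0.684% in Chd8+/- and 92.1 ± 0.454% in WT, and the 174 elsewhere 92.3 ± 0.879% and 92.5 ± 0.383%.

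Over all 369 members the genotypes were at nearly the same level. The sample means were 91.5%, 92.4% and 92.9% in Chd8+/- and 92.0%, 92.2% and 92.3% in WT, or 92.3 ± 0.723% and 92.2 ± 0.117% (SD, n = 3 each). The Chd8+/- samples lay on both sides of the WT samples, and the difference of 0.143 points had an SE of 0.423. It was -0.125 points within the libraries of low chromosome X share and 0.678 within the pair of high share. Leaving out Chd8+/- replicate 3 gave -0.178 points, and leaving out Chd8+/- replicate 1 gave 0.534, so its sign rested on single libraries.

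Because the WT samples chose the members, each WT sample was also compared after the other 2 had chosen. The 3 Chd8+/- samples then exceeded the held-out WT sample by 0.445, 0.395 and 0.272 points over 367, 365 and 369 windows. In all 3 cases the held-out WT mean, 91.8%, 92.1% and 91.9%, was below that of the WT samples that chose, 92.4%, 92.4% and 92.2%. Bands cut on the same WT levels that enter the difference can lean apart through that choice. In their values, choice and genotype cannot be told apart. The 23 members at 75% to 80% in WT averaged 80.04% in Chd8+/- and 77.9% in WT, and the 157 at 95% to 100% averaged 96.4% and 97.1%.

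**Figure D5:**
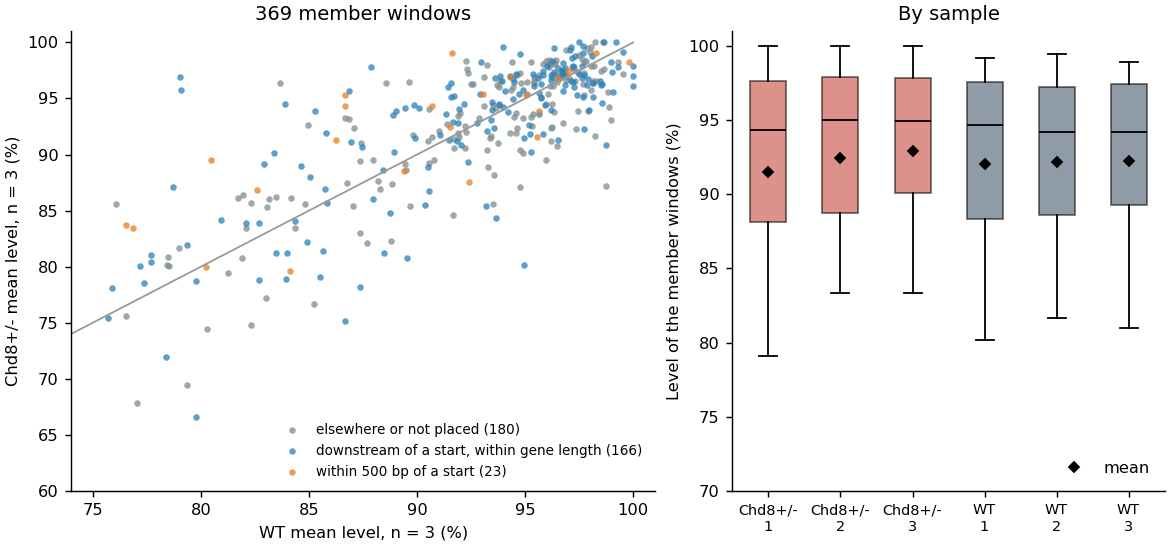
Left: mean methylation level in percent of the 369 member windows in Chd8+/- (vertical axis, n = 3) against WT (horizontal axis, n = 3), coloured by place relative to gene starts, with the line of equality. Right: member levels by sample, with boxes from the 25th to the 75th percentile, whiskers from the 10th to the 90th, a line at the median and a diamond at the mean; the diamonds lie between 91.5% and 92.9%.

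In 363 of 369 members the Chd8+/- mean was also above 75%, in 319 all 6 samples were, and in 146 all 6 were above 90%. The difference was within 5 points in 307 members (83.2%), and it ranged from -14.8 to 17.9 points. The median SD within a window was 3.21 points in Chd8+/- and 2.91 in WT. Counting error would give 1.43 in WT if every CpG call were an independent read. CpGs on the same read are not independent, so counting alone can give more than 1.43. How much of the spread exceeds counting was not tested. Pooled reads were higher in Chd8+/- in 207 members (56.1%), beside 53.1% of all 67483 windows tested and 50.8% of windows of any density above 75% in WT.

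No member passed the test of genotype. In edgeR's quasi-likelihood test over 67483 windows with Benjamini-Hochberg adjustment, 0 of 369 members and 0% of all windows had an adjusted p under 0.05, and the smallest adjusted p was 0.998. At an unadjusted p under 0.05 there were 8 members (2.17%), 6 higher and 2 lower in Chd8+/-, beside 3.53% of all windows (1.93% higher, 1.6% lower). limma gave 0 adjusted and 13 unadjusted calls among the members (3.52%, beside 5.21% of all windows unadjusted), and logistic regression with overdispersion 0 and 17 (4.61%, beside 5% of all windows). A blocked edgeR fit by replicate number gave 0 adjusted and 5 unadjusted calls (1.36%, beside 3.31% of all windows). Pooling the reads of each genotype, Fisher's exact test called 125 members (33.9%) and 31.9% of all windows at an adjusted p under 0.05, with no account of how samples varied. Counts of separated samples were taken on pooled reads over all covered CpGs of a window, not on the level over its dense CpGs. A window can thus count here although its levels overlap, as at chr16:87408001-87408500. By pooled reads, the 3 Chd8+/- samples all lay above the 3 WT samples in 25 members (6.78%). The share was 5.07% of all windows and 5.14% of windows of any density above 75% in WT. The 3 Chd8+/- samples all lay below in 18 members (4.88%), beside 3.91% of all windows and 4.54% of those above 75% in WT.

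Among the windows with the smallest p, Pou6f1, a POU homeodomain factor, had the largest positive difference, at 98.2%, 92.5% and 100% in the Chd8+/- samples, against 64.4%, 89.6% and 83.1% in the WT samples. The groups did not overlap, WT replicate 1 stood lowest, and the edgeR adjusted p was 0.998. Tnrc18, a chromatin protein, read 96.7%, 100% and 96.8% in the Chd8+/- samples, against 84.0%, 94.2% and 85.4% in the WT samples. The window at chr8:43748501-43749000 read 97.6 ± 1.77% in Chd8+/- and 92.3 ± 3.03% in WT, and that at chr9:114476501-114477000 read 96.4 ± 2.02% and 83.7 ± 14.4%, with WT replicate 2 at 67.4%.

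Among those lower in Chd8+/-, Chd5, a remodeller of the same protein family as Chd8 that is found mainly in neurons, had the largest difference. It read 78.8%, 69.2% and 92.5% in the Chd8+/- samples, against 97.1%, 89.5% and 98.3% in the WT samples, in 4 CpGs at 78.8% of the gene's length. The groups overlapped, and the lowest Chd8+/- library had a coverage of 52 summed over the 4 CpGs. edgeR gave an adjusted p of 0.998 and an unadjusted p of 0.0475. At chr7:44189501-44190000 the Chd8+/- samples read 82.8%, 87.5% and 91.3%, against 100%, 100% and 96.3% in the WT samples. Snrnp70 read 94.0 ± 1.26% in Chd8+/- and 98.0 ± 1.40% in WT, chr7:125891501-125892000 read 94.2 ± 3.21% and 98.9 ± 1.92%, and chr1:71749001-71749500 read 87.1 ± 5.17% and 94.7 ± 6.48%. None of these had an adjusted p under 0.05.

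WT replicates disagreed most in Tinagl1, at 66.4%, 87.5% and 100%, and in Crocc, at 88.5%, 60% and 88.8%. The Chd8+/- samples read 100%, 96.7% and 70.4% in Tinagl1 and 94.6%, 97.7% and 94.97% in Crocc, so only the first spread as widely in both genotypes. Nbeal2 ran from 58.5% to 89.2% in Chd8+/- and from 66.0% to 92.4% in WT. Of the 5 windows with the most reads per CpG, those of Jarid2 and Tmem267 are given above, with SDs of 3.18 and 2.82 points in Chd8+/- and 3.67 and 3.97 in WT. The window at chr11:3143001-3143500 read 86.2 ± 1.75% in Chd8+/- and 83.5 ± 1.12% in WT. The window at chr11:3143501-3144000, with 976 reads per CpG, read 89.0%, 87.3% and 86.7% in the Chd8+/- samples, against 88.9%, 88.3% and 87.3% in the WT samples, and the one at chr16:16955001-16955500 read 96.9 ± 1.29% in Chd8+/- and 96.3 ± 2.01% in WT.

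The other long loci were methylated in each of their windows in both genotypes. The 3 windows in Etv3, an ETS repressor, read 97.9%, 96.7% and 90.2% in Chd8+/- and 97.2%, 94.4% and 95.3% in WT. The 3 in Prdm16, a zinc finger regulator of neural stem cells, read 96.1%, 96.2% and 97.3% in Chd8+/- and 100%, 96.8% and 96.8% in WT. The pair at chr13:34930501-34931500 read 98.4% and 97.3% in Chd8+/- and 96.1% and 94.8% in WT, and the pair at chr7:5034001-5035000 read 93.3% and 87.5% in Chd8+/- and 94.5% and 86.8% in WT. By chromosome, members made up from 0.876% of the dense windows on chromosome 14 to 4.06% on chromosome 10.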

How the data were processed

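CpG tables of 6 RRBS libraries were used. Per the submitters' processing notes, Trim Galore 0.4.4, Bismark 0.20.0, SAMtools 1.9 and build mm39 were used; their settings and any removal of duplicates are not given in the sources used here. Coverage is deposited as a count of reads per cytosine, with at least 10 reads listed, and the share read as cytosine as percent, per the file headers. Coverage times percent, rounded, gave methylated counts. The strands of a CpG were merged by summing reads. Autosomal CpGs with 10 reads in all 6 samples entered (534921, of which 123301 were dense). PCR reads without molecular identifiers are not independent, so expected spreads cover counting error only. They also take each CpG of a read as a separate count.

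Genotype was tested with edgeR 4.0.16 (quasi-likelihood, R 4.3.3) on methylated and unmethylated counts of 500-bp windows with 3 or more covered CpGs of any density, leaving out windows at 0% or 100% in all samples. limma 3.58.1 used a pseudocount of 1. The tests were tested on simulated counts. Alternatives are in the closing section. Other steps ran in Python 3.11.15 with matplotlib 3.10.9, numba 0.67.0, pandas 2.3.3, numpy 2.4.6 and scipy 1.17.1.

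No mm39 genome or annotation was used. RefSeq promoters (32851 sequences of 300 bases, GRCm38.p6) were placed where every listed CpG of a stretch fell on a CpG of the sequence, with 8 or more matches at a single best place (8002 promoters), or 4 to 7 matches and the spacing of the table to a placed neighbour (2650). Of 8011 placements with a neighbour to compare, 99.4% kept the table's spacing. Promoters of chromosome 18 were not analysed here, nor were those of protocadherins. A gene's extent is its RefSeq length from the placed start, so exons, introns and UTRs are not told apart.

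The windows named are those within 500 bp of a start of a listed gene, the 5 longest loci, the 5 densest, the 3 highest and 3 lowest in WT, 3 just outside, the 5 of smallest p in each direction, the 5 of largest WT SD and the 5 of most reads per CpG; other windows were named after their values were seen. The members, lists and tests were chosen with earlier results of these data known.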

Additional observations from a re-analysis of the deposited data

How the results depend on the processing

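The number of members followed the thresholds. It was 369, against 199 with at least 20 reads per CpG, 110 with a density over 20 and 876 with a density over 12. The other 9 definitions of a member gave 263 to 517. The mean difference was 0.143 points, and it was 0.939 points when the Chd8+/- samples chose the windows and 1.06 when windows were weighted by reads; without the 5 windows of most reads per CpG the weighted value was 0.110, an alternative added after the data were seen, as was 1 value per locus (0.0604). Leaving out a replicate gave -0.178 to 0.534 points for the mean and 0 called members each time. The count of called members was 0 in every setting except Fisher's exact test on pooled reads, with 125 members (33.9%, beside 31.9% of all windows); that test takes reads as independent and ignores the spread between samples.

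Same-numbered samples were not shown to be pairs: the deviations from the group means of samples with the same number correlated at 0.00833, 0.00112 and 0.00353 over all windows and at 0.169, 0.195 and 0.0242 over the members. Over the members every sample correlated best with its own number, the other pairs running from -0.186 to 0.00549. For replicate 3 the margin was small, at 0.0242 against 0.00549. Deviations sum to 0 within a group, so these correlations are not independent of each other. Pairing was not tested and is not given by the design. With the replicate number as a block the mean difference was 0.143 points and edgeR called 0 members, with 5 at an unadjusted p under 0.05 (1.36%, beside 3.31% of all windows).

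Depth differed between members: the lowest coverage of a window, summed over its dense CpGs, was 32 in a Chd8+/- library and 32 in a WT library, in different windows.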

Other observations

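Sequence letters of the 25 promoters touched by a member were searched on both strands for the E-box CACGTG, which was in 4 of them (16%), those of Mael, Tdrd1, Slc25a31 and Zglp1, and in 7.15% of all 32851 promoters of the table. The same search was made for an E2F-type motif, GCGGGAA. It was in 4 of the 25 (16%), those of Tex14, Rad51c, Slc25a31 and Tuba3b, and in 4.6% of all promoters. Tex14 and Rad51c share the stretch of DNA with the match. Among 5364 placed promoters with at least 3 covered CpGs and a WT mean under 25%, the shares were 10.3% and 9.88%. These are descriptions of few sequences, with no test.

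The classes of CpG-dense windows that were not members gave values of their own. The 200 intermediate windows averaged 48.9 ± 1.17% in Chd8+/- and 47.0 ± 1.71% in WT (SD, n = 3 each). The 14716 unmethylated windows averaged 0.972 ± 0.0118% in Chd8+/- and 0.908 ± 0.0237% in WT.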
